A study of Homo sapiens with 18 samples.

Results

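The mitochondrial ribosomal protein genes were taken as every endogenous row of the deposited expression table whose name is MRPL or MRPS followed by a number and, in some cases, a letter A to C. There were 75 of them among 17026 endogenous rows, beside 38 rows of ERCC transcripts, which are synthetic RNAs added in known amounts. RNA had been sequenced from 3 human pancreatic ductal adenocarcinoma cell lines, BxPC3, MiaPaCa2 and PANC1, after 6 h with THZ1 at 100 nM or with the solvent DMSO. Each of the 6 groups, THZ1 and DMSO in each line, held 3 libraries, which the design text calls biological triplicates. THZ1 is a covalent inhibitor of the transcription kinase CDK7 that also acts on CDK12 and CDK13, and the comparison asks how gene expression differs after short treatment. Each line stands for 1 tumour, and the cultures of a line share that origin. Whether the triplicates were separate cultures is not given beyond that term, so the p-values reflect no more than how these libraries varied.

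Mitochondria carry their own ribosome, which makes the hydrophobic core subunits of the respiratory chain from mitochondrially encoded mRNAs. Its RNAs come from the mitochondrial genome, while all of its proteins are encoded in the nucleus, made in the cytosol and imported. Some of these proteins have counterparts in bacterial ribosomes and others exist only in mitochondria. The MRPL names were given to large-subunit and the MRPS names to small-subunit proteins, with a few exceptions. MRPS18A and MRPS30 are proteins of the large subunit in the assembled particle, and MRPS36 is a subunit of the 2-oxoglutarate dehydrogenase complex and no structural ribosomal protein. By these assignments 48 members belonged to the large subunit, 26 to the small subunit and 1 to neither.

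RefSeq promoter windows of GRCh38.p14, from 250 bases before to 50 bases after a start, were matched by symbol for 66 of the 75 members, which had 82 windows. MRPL2, MRPL10, MRPL13, MRPL15, MRPL21, MRPL23, MRPL35, MRPS28 and MRPS36 had no window. Of the windows, 15.9% held the YY1 motif AAGATGGCG on either strand, against 3.38% of the 13921 windows of all tested genes and 1.75% of all 35116 windows. The ETS motif CCGGAAG, to which the nuclear respiratory factor GABPA binds, was present in 37.8% of the members' windows, in 16.6% of those of all tested genes and in 10.3% of all windows. The motif of the nuclear respiratory factor NRF1 was found in 9.76% of the members' windows, in 9.63% of those of tested genes and in 5.78% of all windows. These are matches of letters, and the sets overlap in genes. The 28 tested members with the ETS motif had a median log2 fold change of 0.38 in BxPC3 and 0.62 in MiaPaCa2, against 0.41 and 0.63 for the 37 members without it. The 12 tested members with the YY1 motif had medians of 0.22 and 0.43, against 0.40 and 0.66 for the 53 without it. These differences were not tested.

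The stretches below are the 150 bases before the start of 4 members that were chosen after their values were seen, from the 7 members with a single window in which these bases overlap no GENCODE 29 exon. They were picked by log2 fold change, THZ1 over DMSO, in BxPC3 on the scale of the deposited values. MRPL11 and MRPL28 were among the highest there, MRPS31 was among the lowest, and MRPS18A had no called difference. After scaling by the ERCC transcripts, described below, MRPS18A was lower in BxPC3, and neither MRPL11 nor MRPL28 passed the test. All lie on the minus strand and read 5′ to 3′, at chr11:66438849-66438998, chr16:370539-370688, chr13:40771191-40771340 and chr6:43687792-43687941 in the order printed. Capitals mark the ETS motif, the only one of the YY1, ETS and NRF1 motifs found in these stretches.
MRPL11: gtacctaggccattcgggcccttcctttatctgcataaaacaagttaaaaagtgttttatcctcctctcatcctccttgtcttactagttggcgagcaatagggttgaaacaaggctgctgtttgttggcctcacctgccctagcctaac
MRPL28: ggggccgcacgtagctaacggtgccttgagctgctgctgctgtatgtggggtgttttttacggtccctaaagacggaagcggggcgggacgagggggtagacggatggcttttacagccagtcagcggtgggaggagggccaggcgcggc
MRPS31: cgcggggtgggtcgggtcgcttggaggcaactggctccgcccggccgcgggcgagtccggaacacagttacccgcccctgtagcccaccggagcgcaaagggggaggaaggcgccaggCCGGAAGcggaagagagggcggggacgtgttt
MRPS18A: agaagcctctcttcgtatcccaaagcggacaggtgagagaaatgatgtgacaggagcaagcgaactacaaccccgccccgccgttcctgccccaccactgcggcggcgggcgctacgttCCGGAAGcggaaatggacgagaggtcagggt
The printed stretches of MRPS31 and MRPS18A carry the ETS motif and those of MRPL11 and MRPL28 do not. The 300-base window of MRPL28 does hold it outside the printed bases, so that MRPL28 is counted among the members with the motif, and the window of MRPS18A also holds the YY1 motif outside them. The stretch of MRPL11 had a G+C content of 46.7%, against 64.0% for MRPL28, 72.0% for MRPS31 and 61.3% for MRPS18A.

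The libraries held 12556005 to 20910423 recovered reads, except the first PANC1 DMSO library with 6352482, and every member had at least 2 reads in every library. That PANC1 DMSO library stood apart: the SD of its log2 residuals over all tested genes was 0.52, where the remaining 17 libraries had 0.10 to 0.31, and 1.95% of its endogenous reads came from the 13 mitochondrially encoded mRNAs, against 4.04% and 4.05% in the other PANC1 DMSO libraries. Main call counts and some values are also given without it. It enters every fit through the shared spread, so that calls in the other lines moved as well. Of the line markers, SMAD4, which BxPC3 is known to lack, averaged 0.14 in BxPC3 DMSO libraries, 61.5 in MiaPaCa2 and 20.3 in PANC1. KRT8 and KRT18 were expressed in all 3 lines, while KRT7 was at 1975.6 in BxPC3 but at 0.92 in MiaPaCa2 and 4.2 in PANC1 DMSO libraries. Levels here are the deposited values times 1 constant, so that the mean library sums to 1000000. Of the 75 members, 74 reached a level of 1 in at least 3 libraries and were tested. MRPS24 was the exception, with levels between 0.12 and 2.21, and is spliced in a readthrough transcript with URGCP in GENCODE 29.

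Per kilobase of transcript, the most abundant member differed between the lines. In DMSO libraries it was MRPS34 at 105 in BxPC3, MRPL3 at 103 in MiaPaCa2 and MRPS12 at 281 in PANC1. MRPS12 was at 81.5 in BxPC3 and 39.0 in MiaPaCa2, below MRPL37 at 88.8 and 94.7, so its first place in the mean of all 9 DMSO libraries, at 134, rests on PANC1. MRPS12 is a protein of the decoding centre and MRPL3 a core protein of the large subunit. At the low end stood MRPS24 at 0.73, MRPL38 at 1.67, MRPL53 at 1.84, MRPL42 at 2.06 and MRPL46 at 2.88, as means of the 9 DMSO libraries. The place of MRPL42 rests on an annotated transcript of 15582 bases, the longest of the members; its level not divided by length was 32.1, against 3.16 for MRPL38. The annotated transcript lengths of the members had a median of 1455 bases, against 3029 for all tested genes with a length. For 32 members GENCODE 29 names at least 1 pseudogene, 37 overlap a gene on the opposite strand and 19 one on the same strand, so that their reads are uncertain to that extent, since it is not stated how the authors counted such reads.

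The comparison of THZ1 with DMSO gave opposite directions on the 2 scales. On the deposited scale, 41 of the 74 members were higher and 9 lower in THZ1-treated BxPC3 cells (limma with Benjamini-Hochberg adjustment over 15354 genes, adjusted p under 0.05), where 40.0% of all tested genes were higher and 18.9% lower. Their median log2 fold change was 0.38, against 0.25 for all tested genes. In MiaPaCa2, 59 members were higher and 1 lower after THZ1, where 36.5% of all tested genes were higher and 19.8% lower. The members' median was 0.60 there, against 0.19 for all genes. Without the first PANC1 DMSO library, 50 members were higher and 13 lower in BxPC3, where 49.4% and 23.8% of genes were. In MiaPaCa2 62 were then higher and 1 lower, where 46.2% and 25.2% of genes were. In PANC1, none was called in either direction by limma, where 0.274% of genes were called higher and 0.228% lower. At an unadjusted p under 0.05, 11 members were higher and 0 lower in PANC1, where 1647 of all 15354 tested genes were higher and 1760 lower. DESeq2 on recovered reads called 2 members higher and edgeR called 0 there, and no share of all genes is given for these tests.

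When each library was divided by its relative ERCC sum, no member was higher after THZ1 in any line by limma, also at an unadjusted p under 0.05, and neither edgeR nor DESeq2 called one, where 1.37% of all tested genes were higher in BxPC3, 1.45% in MiaPaCa2 and 0.0391% in PANC1. On this spike-in scale 54 members were lower in BxPC3, where 59.2% of genes were lower, 59 in MiaPaCa2, where 73.2% were lower, and 4 in PANC1, where 18% were lower. Without the first PANC1 DMSO library these counts were 60, 66 and 1, where 67.3%, 80.7% and 15.1% of genes were lower. The ERCC sum on the deposited scale was higher after THZ1 by 1.19 log2 units in BxPC3, 1.3 in MiaPaCa2 and 0.28 in PANC1 (two-sided exact permutation p = 0.1, 0.1 and 0.2), and by 0.40 in PANC1 without its first DMSO library. The medians of the members were -0.75, -0.63 and -0.23 log2 units in BxPC3, MiaPaCa2 and PANC1, beside -0.65, -0.85 and -0.31 for all tested genes. With libraries brought to equal endogenous sums, the members' medians were -0.31, -0.03 and 0.05, beside -0.29, -0.30 and -0.06 for all genes. Fewer cells and less RNA per cell cannot be told apart in such bulk samples, and the ERCC transcripts were added to extracted RNA.

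**Figure D1:**
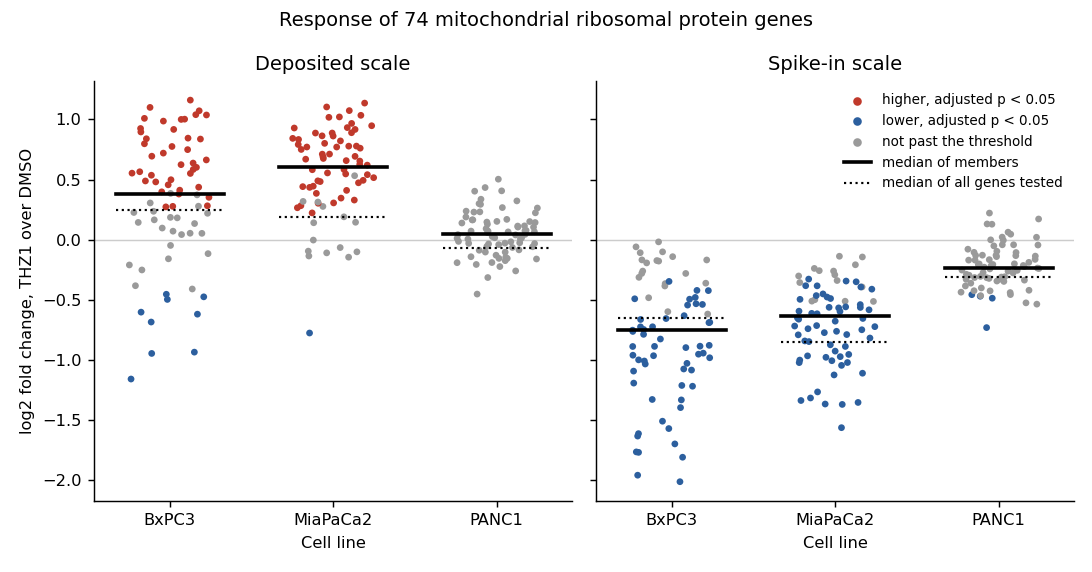
Each point is the log2 fold change (THZ1 over DMSO) of 1 of the 74 tested members in 1 cell line, on the deposited scale (left) and the spike-in scale (right). Colours give limma calls, solid bars the median of the members and dotted bars that of all tested genes. In BxPC3 the members' median is 0.38 on the deposited scale and -0.75 on the spike-in scale.

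Summed over the 75 members, the share of endogenous reads was 0.279% ± 0.003 in THZ1-treated and 0.326% ± 0.010 in DMSO-treated BxPC3 cells (SD, n = 3 each), a log2 difference of -0.22 (two-sided exact permutation test, p = 0.1, the smallest that 3 against 3 libraries allow). The share was 0.359% ± 0.003 with THZ1 and 0.357% ± 0.006 with DMSO in MiaPaCa2 (exact permutation p = 0.8). In PANC1 it was 0.394% ± 0.026 with THZ1 and 0.387% ± 0.014 with DMSO (exact permutation p = 0.7). The 3 THZ1 libraries of BxPC3 lay below its 3 DMSO libraries, while the groups overlapped in the other lines. Without the first library the PANC1 DMSO share averaged 0.391%.

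Counting members whose 3 THZ1 libraries all lay on 1 side of the 3 DMSO libraries gave 50 higher and 12 lower in BxPC3 on the deposited scale, where 51.1% and 25% of all tested genes did so. In MiaPaCa2 63 members lay higher and 2 lower, where 47.6% and 26.2% of genes did, and in PANC1 7 higher and 0 lower, where 8.34% and 8.73% did. With spike-in scaling 0 members lay higher in any line, and 65, 70 and 24 lay lower in BxPC3, MiaPaCa2 and PANC1, where 73.6%, 81.8% and 31.5% of genes did.

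Both subunits held members that were higher after THZ1 on the deposited scale. The counts by class stand beside the shares of all tested genes, 40.0% higher and 18.9% lower in BxPC3 and 36.5% and 19.8% in MiaPaCa2. Of the 29 large-subunit members with a bacterial counterpart, 16 were higher and 4 lower in THZ1-treated BxPC3 cells, and 27 were higher and 0 lower in MiaPaCa2. Of the 19 large-subunit members found only in mitochondria, 9 were higher and 3 lower in BxPC3, and 11 were higher and 1 lower in MiaPaCa2. Of the 14 tested small-subunit members classed here as having a bacterial counterpart, 8 were higher and 0 lower in BxPC3, and 10 were higher and 0 lower in MiaPaCa2. The 11 small-subunit members classed here as found only in mitochondria, with MRPS28 placed among them, had 7 higher and 2 lower in BxPC3. In MiaPaCa2 they had 10 higher and 0 lower. The medians in BxPC3 and MiaPaCa2 were 0.40 and 0.73 for the large subunit and 0.38 and 0.53 for the small subunit. At an unadjusted p under 0.05, no member of the 3 classes without a lower call in MiaPaCa2 was lower there either, and 1 small-subunit member with a bacterial counterpart was lower in BxPC3. On the spike-in scale no class had a higher call in BxPC3 or MiaPaCa2, where 1.37% and 1.45% of all tested genes were higher. Lower calls numbered 30 and 34 of the 48 large-subunit and 23 and 24 of the 25 small-subunit members. Of all tested genes 59.2% and 73.2% were lower in these lines. Differences between these classes were not tested.

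The members with the highest log2 fold changes in BxPC3 on the deposited scale were MRPL11, MRPL23, MRPL28 and MRPL48. MRPL11, a protein of the stalk base where elongation factors bind, had levels of 129, 132 and 135 with THZ1, against 55.5, 60.9 and 59.6 with DMSO in BxPC3. The 3 THZ1 libraries were all above the DMSO libraries, and the log2 fold change was 1.16 ± 0.16 (SE, limma adjusted p = 9.8e-06). In MiaPaCa2 MRPL11 had 87.9, 77.0 and 86.7 with THZ1, against 40.0, 40.1 and 41.1 with DMSO, again without overlap. In PANC1 it had 88.4, 72.1 and 85.5 with THZ1, against 117, 67.5 and 65.1 with DMSO, where the libraries overlapped and the first DMSO library was the highest. Its spike-in log2 fold changes were -0.02 in BxPC3, -0.24 in MiaPaCa2 and -0.26 in PANC1, none past the threshold. MRPL11 thus passed the test only on the deposited scale, and its sign changed with the scale.

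MRPL28, a large-subunit protein with a bacterial counterpart, had 136, 143 and 157 with THZ1, against 62.6, 69.1 and 74.5 with DMSO in BxPC3, a log2 fold change of 1.07 ± 0.15 (SE, limma adjusted p = 1.2e-05). MRPL23, which lies near the exit of the peptide tunnel, averaged 53.6 ± 3.2 with THZ1 and 24.5 ± 2.4 with DMSO in BxPC3 (SD, n = 3 each), a log2 fold change of 1.10. MRPL48 averaged 32.7 ± 1.1 with THZ1 and 15.4 ± 1.2 with DMSO there, a log2 fold change of 1.04. The THZ1 libraries of all 3 genes lay above the DMSO libraries. In MiaPaCa2 the highest were MRPL24, MRPL23, MRPL41 and MRPL11, with log2 fold changes of 1.14, 1.10, 1.07 and 1.03. MRPL24 had 94.1, 88.3 and 87.9 with THZ1, against 41.5, 40.7 and 39.2 with DMSO in MiaPaCa2. MRPL41 averaged 142 ± 9.0 with THZ1 and 67.1 ± 4.0 with DMSO there. Neither gene had overlapping libraries in MiaPaCa2. These members were on the spike-in scale between -0.02 and -0.34 in BxPC3 and MiaPaCa2, and none passed the threshold.

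The 9 members lower in THZ1-treated BxPC3 cells on the deposited scale were MRPL53, MRPL36, MRPS31, MRPL10, MRPL17, MRPS26, MRPL45, MRPL15 and MRPL50. MRPL36, a short large-subunit protein with a bacterial counterpart, had 7.09, 7.57 and 10.9 with THZ1, against 16.2, 17.7 and 17.4 with DMSO in BxPC3, a log2 fold change of -0.95 ± 0.15 (SE, limma adjusted p = 4.7e-05). The libraries did not overlap. In MiaPaCa2 MRPL36 had 32.8, 31.2 and 34.0 with THZ1, against 36.0, 36.0 and 33.9 with DMSO, which overlap, a log2 fold change of -0.11 that did not pass the test. MRPL36 was on the spike-in scale at -2.01 in BxPC3 (adjusted p = 3.5e-09), the lowest of the 74 members there, at -1.37 in MiaPaCa2 and at -0.44 in PANC1.

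MRPS31, a mitochondria-specific small-subunit protein, had 5.76, 6.58 and 5.09 with THZ1, against 12.9, 11.3 and 11.7 with DMSO in BxPC3, a log2 fold change of -0.94 ± 0.13 (SE, adjusted p = 1.2e-05). In MiaPaCa2 it had 12.8, 13.5 and 17 with THZ1, against 16.8, 15.6 and 15.2 with DMSO, which overlap. MRPL10, the protein that anchors the ribosomal stalk, averaged 16.8 ± 1.3 with THZ1 and 27.6 ± 1.8 with DMSO in BxPC3, a log2 fold change of -0.69. In MiaPaCa2 it averaged 38.9 ± 0.9 with THZ1 and 41.8 ± 1.5 with DMSO, a log2 fold change of -0.10 that did not pass the test. MRPL53 was low throughout, with 0.55, 0.66 and 0.40 with THZ1, against 2.65, 2.50 and 2.13 with DMSO in BxPC3, a log2 fold change of -1.16 on the scale with 1 added, which understates changes of low genes. It was also the only member called lower in MiaPaCa2 on the deposited scale, at -0.78 (adjusted p = 0.0065), and it overlaps CCDC142 on the same strand.

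**Figure D2:**
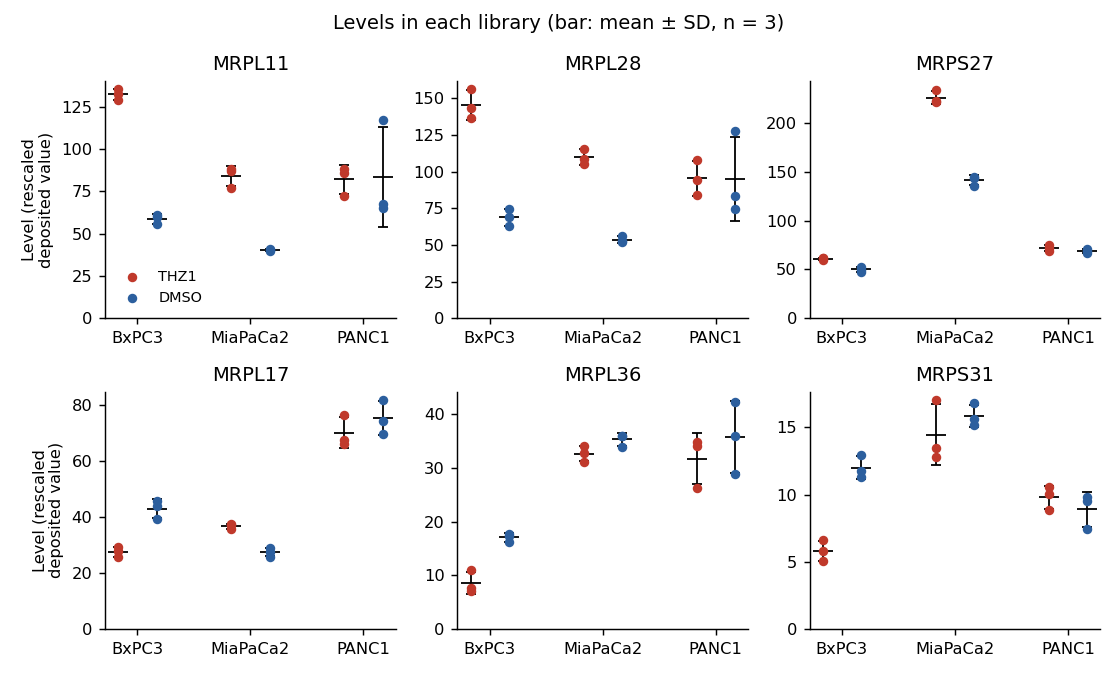
Levels of 6 members in each library by cell line, THZ1 left of DMSO, with the mean and SD of 3 libraries; each panel has its own axis from 0. MRPL11 and MRPL28 lie above DMSO after THZ1 in BxPC3 and MiaPaCa2, while MRPL17 lies below in BxPC3 and above in MiaPaCa2.

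MRPL17, a large-subunit protein with a bacterial counterpart, moved in opposite directions in BxPC3 and MiaPaCa2 on the deposited scale. It had 28.0, 25.7 and 29.3 with THZ1, against 39.3, 45.7 and 44.2 with DMSO in BxPC3, a log2 fold change of -0.62 ± 0.09 (SE, limma adjusted p = 1.8e-05). In MiaPaCa2 it had 37.1, 35.7 and 37.5 with THZ1, against 27.6, 28.8 and 25.9 with DMSO, a log2 fold change of 0.41 ± 0.09 (SE, adjusted p = 0.00099). The libraries did not overlap in either line. In PANC1 they overlapped, at 76.5, 66.2 and 67.8 with THZ1, against 82.1, 74.5 and 69.8 with DMSO. The response in MiaPaCa2 exceeded that in BxPC3 by 1.03 (interaction contrast, adjusted p = 6.2e-05), and by 0.92 on the spike-in scale (adjusted p = 0.014), where MRPL17 was lower in both lines, at -0.85 in MiaPaCa2 and -1.77 in BxPC3. With equal library sums its value in MiaPaCa2 was -0.22 (limma adjusted p = 0.046), so that it was called lower there. The opposite directions thus hold on the deposited scale and not with every scaling.

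Tests of the difference in response called 12 members between MiaPaCa2 and BxPC3 on the deposited scale, all with the higher value in MiaPaCa2, where 6.14% of all genes were called higher, 7.66% lower and 13.8% either way. Besides MRPL17 these were MRPS26, MRPL36, MRPS31, MRPL2, MRPL15, MRPL45, MRPL10, MRPL16, MRPL9, MRPS18B and MRPS27. Without the first PANC1 DMSO library, which enters through the shared spread, 28 members were called higher and 0 lower, where 14.7% of all genes were higher and 20.6% lower in the same fit. After spike-in scaling 2 were called, MRPL17 and MRPS26, where 2.43% of genes were called higher, 5.22% lower and 7.65% either way. MRPS26 differed by 0.91 on the deposited scale and by 0.80 on the spike-in scale. Over the 74 members the responses in the 2 lines had a Spearman correlation of 0.86, against 0.77 over all 15354 genes, as a description across genes.

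**Figure D3:**
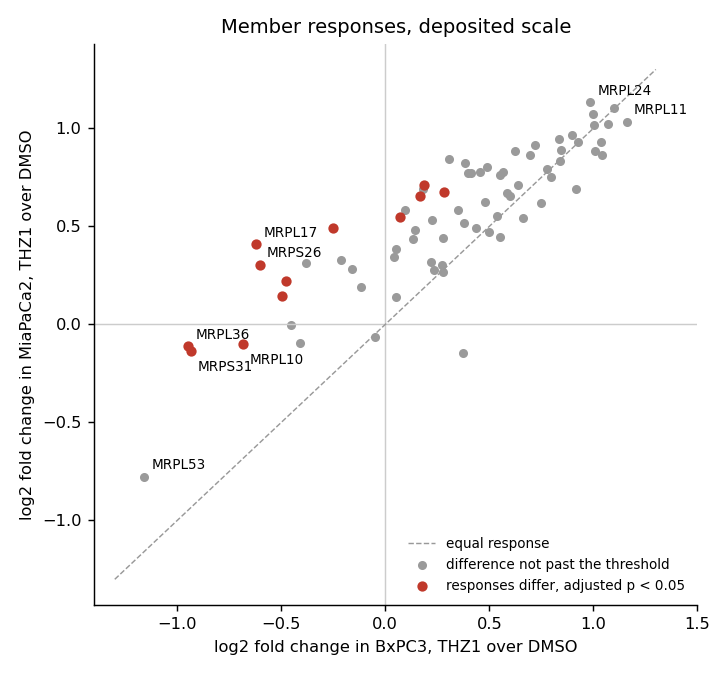
Log2 fold change of each tested member in BxPC3 (horizontal) and MiaPaCa2 (vertical) on the deposited scale; the dashed line marks equal response. The 12 members in red, whose responses differed by the interaction contrast, lie above the line.

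MRPS15, MRPL51 and MRPS27 stood with MRPL17 as the members with the smallest p in the joint test of response differences among lines. MRPS15, a small-subunit protein with a bacterial counterpart, averaged 122 ± 4.5 with THZ1 and 59.2 ± 3.5 with DMSO in BxPC3, 108 ± 4.5 with THZ1 and 56.4 ± 4.4 with DMSO in MiaPaCa2, and 71.2 ± 7.8 with THZ1 and 71.6 ± 14 with DMSO in PANC1. MRPL51, a mitochondria-specific large-subunit protein, averaged 143 ± 7.1 with THZ1 and 71.1 ± 5.7 with DMSO in BxPC3, and 55.8 ± 6.5 with THZ1 and 47.1 ± 3.3 with DMSO in PANC1. Both genes were higher in every THZ1 library of BxPC3 and MiaPaCa2, and their libraries overlapped in PANC1. MRPS27, a pentatricopeptide-repeat protein of the small subunit, had 223, 222 and 234 with THZ1, against 144, 135 and 144 with DMSO in MiaPaCa2, a log2 fold change of 0.68. In BxPC3 it had 61.5, 59.5 and 61.8 with THZ1, against 52.8, 49.7 and 47.5 with DMSO, a smaller log2 fold change of 0.28, and the difference of 0.39 between these lines passed the test (adjusted p = 0.0097). After spike-in scaling the difference was 0.27 and did not pass (adjusted p = 0.59).

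The direction of response differences between PANC1 and the other lines depended on the scale, among the members as over all genes. The response in PANC1 was lower than in BxPC3 for 25 members and higher for 9 on the deposited scale, where 30.8% of genes were lower, 11.9% higher and 42.7% either. Against MiaPaCa2 it was lower for 43 and higher for 0, where 27.4% were lower, 11.6% higher and 38.9% either. By the spike-in scale it was higher than in BxPC3 for 29 members and than in MiaPaCa2 for 24, and lower for none, where 28.9% and 42% of genes were higher, 1.62% and 1.60% were lower, and 30.5% and 43.6% were either. These contrasts share the PANC1 libraries. Without the first PANC1 DMSO library 1 member was called higher and 0 lower in PANC1 on the deposited scale, where 5.5% and 1.31% of all genes were. Without the third DMSO library 8 were higher and 1 lower. No share of all genes is given for that fit, so this count is not read as a result about the members. Leaving the first one out, 10 members were higher and 36 lower in response in PANC1 than in BxPC3, where 16.8% and 39.3% of all genes were in that fit, and 1 was higher and 55 lower than in MiaPaCa2, where 17.4% and 35.4% were. With equal library sums the response in PANC1 was higher than in BxPC3 for 34 members and lower for 0, and higher than in MiaPaCa2 for 9 and lower for 3. The shares of all genes with equal sums are not given, so these counts are not read as results about the members.

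Among the members with the highest log2 fold changes in PANC1 on the deposited scale were MRPL3, MRPS36, MRPL42 and MRPL19, none past the threshold. MRPL3 had 125, 121 and 123 with THZ1, against 51.9, 111 and 112 with DMSO in PANC1. The first DMSO library was far below the other 2, which lay close to the THZ1 libraries. The lowest log2 fold changes in PANC1 on that scale were those of MRPS2, MRPL53, MRPL55 and MRPL38. MRPS2 had 24.9, 17.8 and 24.2 with THZ1, against 53.4, 23.5 and 22.6 with DMSO, and here the first DMSO library was far above the other 2. On the spike-in scale the 4 members called lower in PANC1 were MRPS2 at -0.73, MRPL27 at -0.49, MRPL2 at -0.47 and MRPS16 at -0.46. None of these 4 passed without the first PANC1 DMSO library, at -0.45 for MRPS2, -0.44 for MRPL27, -0.38 for MRPL2 and -0.39 for MRPS16, while MRPS26 then did, at -0.47 (limma adjusted p = 0.044), where 15.1% of all genes were lower.

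The 3 MRPS18 paralogs were all lower on the spike-in scale in BxPC3 and MiaPaCa2, with log2 fold changes of -1.19 and -1.02 for MRPS18A, -1.08 and -0.72 for MRPS18B and -1.0 and -1.02 for MRPS18C. On the deposited scale only MRPS18B in MiaPaCa2 passed the test, at 0.55 (adjusted p = 0.00032), with 59.2, 58.1 and 58.9 with THZ1, against 41.9, 37.7 and 40.3 with DMSO. The response of MRPS18B was higher in MiaPaCa2 than in BxPC3 by 0.48 on that scale. In MiaPaCa2 all 3 THZ1 libraries exceeded the DMSO libraries. MRPL12, the stalk protein that also binds the mitochondrial RNA polymerase, averaged 10.6 ± 0.48 with THZ1 and 6.21 ± 1.2 with DMSO in BxPC3, and 12.3 ± 2.9 with THZ1 and 6.30 ± 1.1 with DMSO in MiaPaCa2. Its log2 fold changes were 0.69 and 0.86 there, both past the test, and -0.36 and -0.30 on the spike-in scale, neither past it. MRPS30 averaged 57.5 ± 1.6 with THZ1 and 64.4 ± 4.7 with DMSO in BxPC3, and 121 ± 7.5 with THZ1 and 99.4 ± 3.5 with DMSO in MiaPaCa2, where it passed the test (adjusted p = 0.034), while in BxPC3 it did not (adjusted p = 0.22). MRPS36 was at 0.35 in BxPC3 and 0.58 in MiaPaCa2 on the deposited scale and at -0.72 and -0.66 on the spike-in scale, past the test in each case.

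For 20 members GENCODE 29 places the start of a protein-coding gene on the opposite strand within 1000 bases, so that the genes run away from each other. These pairs were examined after the values were seen. In 19 pairs both genes were tested; MRPL46 and MRPS11 are partners of each other and appear in 2 of them. The members of these pairs had a median log2 fold change of 0.23 in BxPC3 and 0.53 in MiaPaCa2 on the deposited scale, against -0.44 and -0.04 for the partners. In BxPC3 9 members were higher and 2 lower, beside 5 partners higher and 9 lower, where 40.0% of all tested genes were higher and 18.9% lower. In MiaPaCa2 13 members were higher and 0 lower, beside 5 partners higher and 7 lower, where 36.5% of all tested genes were higher and 19.8% lower. After spike-in scaling no gene of the pairs was called higher in either line, where 1.37% and 1.45% of all genes were. In BxPC3 15 members and 15 partners were lower, where 59.2% of all genes were, and in MiaPaCa2 16 and 16, where 73.2% were. The medians in BxPC3 and MiaPaCa2 were -0.94 and -0.72 for the members and -1.43 and -0.95 for the partners.

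Pairs called in opposite directions numbered 4 in BxPC3 and 5 in MiaPaCa2 on the deposited scale and 0 in both on the spike-in scale, and in all of them the member was higher and the partner lower. MRPL13 with MTBP, MRPL21 with IGHMBP2 and MRPL40 with HIRA were among them in both lines. MRPL21 was at 0.90 in BxPC3 and 0.97 in MiaPaCa2, while IGHMBP2, a helicase gene whose start is 22 bases away, was at -0.50 and -0.91. MRPL40 was at 0.72 and 0.92, and HIRA, a histone chaperone gene, at -0.56 and -0.37. The widest gap was that of MRPS18B, at 0.07 and 0.55, and PPP1R10, a nuclear regulator of protein phosphatase 1, at -2.81 and -2.58. The genes of other pairs were both higher: MRPL47 was at 0.49 and 0.80, and NDUFB5, a respiratory complex I subunit, at 0.76 and 0.89. These values are on the deposited scale, and opposite calls were not counted for other neighbouring genes.

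**Figure D4:**
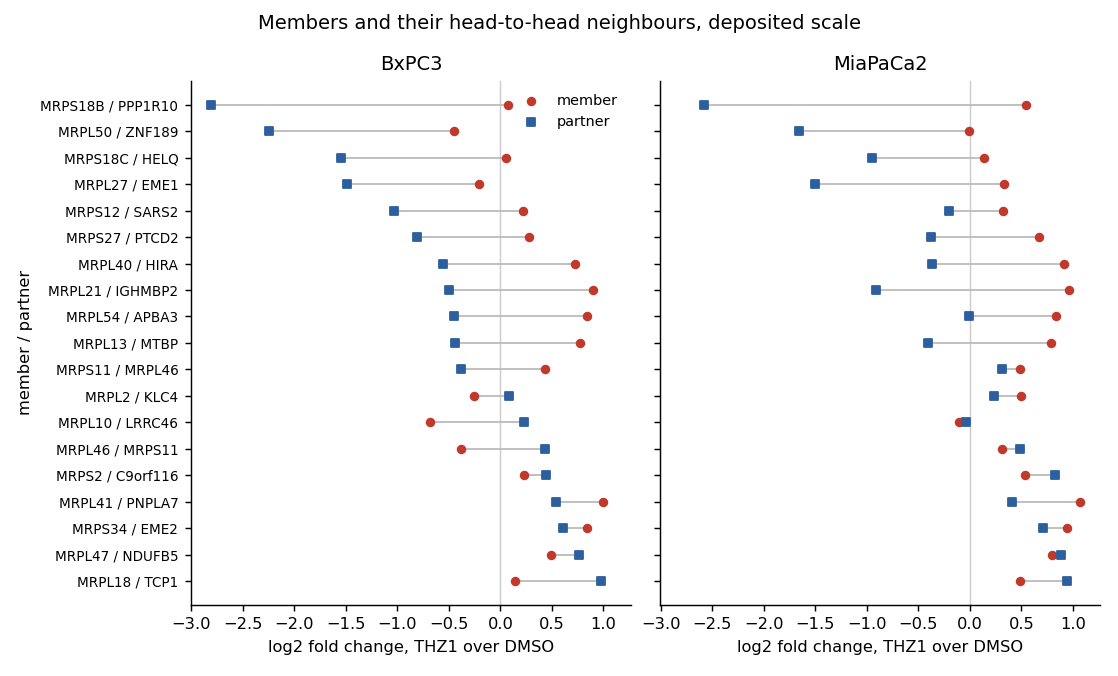
Log2 fold change (THZ1 over DMSO, deposited scale) of members (circles) and of the protein-coding genes that start within 1000 bases on the other strand (squares) in BxPC3 and MiaPaCa2, 19 pairs ordered by the partner in BxPC3. MRPS18B lies at 0.07 and PPP1R10 at -2.81 in BxPC3.

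Between lines without THZ1, members differed in both directions. In DMSO libraries 29 members were higher and 16 lower in MiaPaCa2 than in BxPC3 on the deposited scale, where 37.5% and 25.1% of genes were, 62.6% in all. In PANC1 28 were higher and 12 lower than in BxPC3, where 33.7% and 25.4% were, 59.1% in all, and 27 higher and 25 lower than in MiaPaCa2, where 28% and 32.8% were, 60.8% in all. On the spike-in scale the counts were 43 higher and 5 lower, 27 and 6, and 11 and 32 in the same order, where 49.8% and 15.4%, 33.9% and 19.7%, and 19.4% and 41.2% of genes were, 65.1%, 53.6% and 60.6% in all. Without the first PANC1 DMSO library, PANC1 had 31 members higher and 20 lower than BxPC3 on the deposited scale, where 36.7% and 32.9% of genes were. Against MiaPaCa2 it had 26 higher and 32 lower, where 29.2% and 41.6% were. MiaPaCa2 had 34 higher and 22 lower than BxPC3 in that fit, where 44.8% and 30.8% were. On the spike-in scale PANC1 then had 35 higher and 6 lower than BxPC3, where 38.6% and 21.8% were. Against MiaPaCa2 it had 13 higher and 33 lower there, where 20.1% and 44.5% were. MRPS27 averaged 141 ± 5.2 in MiaPaCa2 and 50.0 ± 2.7 in BxPC3 (SD, n = 3 each), a log2 difference of 1.48, the highest of the members. MRPS34 had the lowest, at -1.23.

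MRPS12 was the member with the widest difference between lines. In DMSO libraries it had 481, 287 and 260 in PANC1, against 93.3, 102 and 103 in BxPC3 and 47.3, 47.9 and 47.4 in MiaPaCa2. The 3 lines did not overlap. The log2 difference was 1.72 between PANC1 and BxPC3 and 2.77 between PANC1 and MiaPaCa2 on the deposited scale, and 1.80 and 2.48 on the spike-in scale. Without the first PANC1 DMSO library these were 1.45 and 2.50, and 1.64 and 2.32. Its neighbours were looked at after this was seen. Of 22 tested genes within 500 kb in GENCODE 29, 21 were higher and 1 lower in PANC1 than in BxPC3 on the deposited scale, and 21 were higher and 0 lower than in MiaPaCa2. Over all tested genes 33.7% were higher and 25.4% lower than in BxPC3, and 28% and 32.8% than in MiaPaCa2. The medians of the neighbours were 2.01 and 2.60, and without the first PANC1 DMSO library 1.70 and 2.29 with the same counts. The mitochondrial seryl-tRNA synthetase gene SARS2, whose start is 58 bases from that of MRPS12, differed by 1.48 and 1.96. PAF1, a subunit of an elongation complex, differed by 3.47 and 4.30. Between THZ1 and DMSO, MRPS12 was not called on the deposited scale, at 0.22 in BxPC3, 0.32 in MiaPaCa2 and -0.14 in PANC1, while on the spike-in scale it was lower in BxPC3 at -0.96 and in MiaPaCa2 at -0.95.

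**Figure D5:**
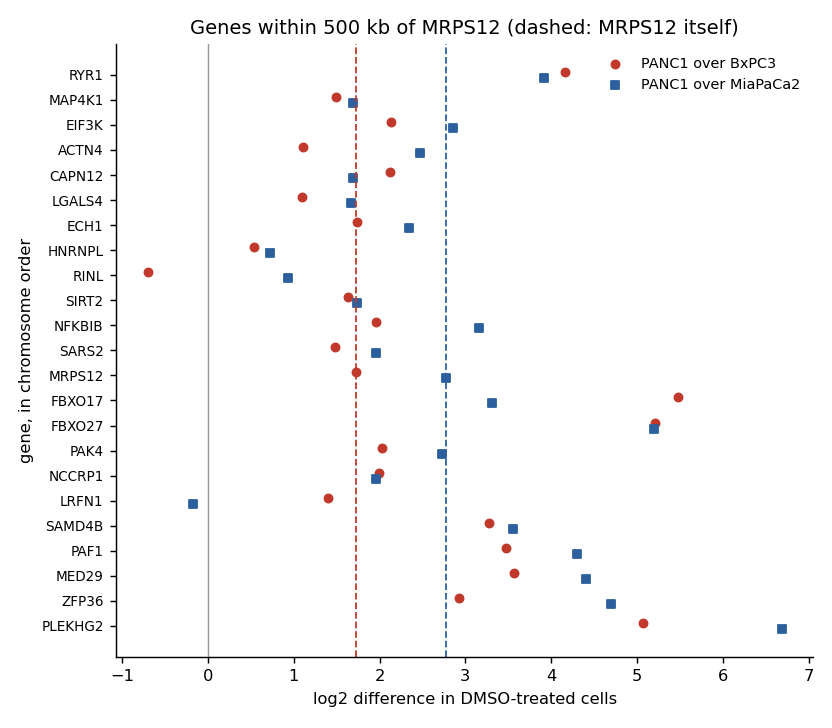
Log2 difference in DMSO libraries between PANC1 and BxPC3 (circles) and between PANC1 and MiaPaCa2 (squares), deposited scale, for MRPS12 and the 22 tested genes within 500 kb, in chromosome order; dashed lines mark MRPS12. The medians of the neighbours are 2.01 and 2.60.

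Other genes of mitochondrial translation gave a mixed picture on the deposited scale. The lists are read against 40.0% of all tested genes higher and 18.9% lower in BxPC3 and 36.5% and 19.8% in MiaPaCa2. Of 7 ribosomal proteins named outside the MRP scheme, 4 were higher and 0 lower in THZ1-treated BxPC3 cells and 7 higher in MiaPaCa2. GADD45GIP1, the highest on average over the 3 lines, was at 1.00 in both of these lines, and ICT1 was lowest on average, at -0.14 and 0.30. Of 29 tested assembly and rRNA-modification genes, 7 were higher and 13 lower in BxPC3, and 11 higher and 8 lower in MiaPaCa2. DDX28, a helicase of large-subunit assembly, was at -1.73 in BxPC3, and the methyltransferase-like METTL17 at 1.11. Of 16 translation factor genes, 8 were higher and 5 lower in BxPC3, and 11 higher and 3 lower in MiaPaCa2. Of 20 tested aminoacyl-tRNA synthetase genes, 9 were higher and 6 lower in BxPC3, and 12 higher and 3 lower in MiaPaCa2; PARS2 averaged 0.45 with THZ1 and 7.66 with DMSO in BxPC3. Of 19 tested genes of mitochondrial transcription and RNA processing, 7 were higher and 6 lower in BxPC3, and 8 higher and 6 lower in MiaPaCa2. After spike-in scaling no gene of these 5 lists was called higher in either line, and in BxPC3 and MiaPaCa2 the lower calls were 5 and 5 of the 7 other ribosomal proteins, 26 and 29 of the assembly genes, 11 and 13 of the translation factors, 17 and 19 of the synthetases and 16 and 18 of the transcription and RNA processing genes, where 59.2% and 73.2% of all genes were lower. The 13 mitochondrially encoded mRNAs were all higher in both lines, with medians of 1.26 and 1.19, and on the spike-in scale none passed the test, nor an unadjusted p under 0.05, with medians of 0.07 and -0.11.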

How the data were processed

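RNA was extracted from 18 samples, ERCC controls were added to the extracted RNA, and stranded polyA libraries were built, per the labels' protocols. The submitters' processing notes name STAR and hg19; how reads were counted, annotated and filtered is not stated there. In the authors' deposited table the library columns hold a signal that multiplies back, by 1 integer for each library, to whole reads (all within 0.001). The authors' log2 ratio and log2 level columns and their SD score column, as deposited, were not used. The design had foreseen normalised values, and values were multiplied by 1 constant, 17.68. Genes at 1 or more in at least 3 libraries were tested with limma-trend in R 4.3.3 (package version 3.58.1) on the log2 of each value with a pseudocount of 1, 6 group means, 12 residual degrees of freedom, Benjamini-Hochberg threshold 0.05. Fold changes are on that scale. On the spike-in scale each library was divided by its ERCC sum relative to the mean. Recovered read counts, made from the deposited values, were also tested with edgeR 4.0.16 and DESeq2 1.42.0. The procedure was tested on simulated data. Lengths, neighbours and overlaps come from GENCODE 29 on GRCh38, not the authors' build; no coordinates were converted. Named members have the 4 highest and 4 lowest log2 fold changes in each line on the deposited scale. Others have the 4 smallest p of the joint test of response differences. Named in any case were MRPL12, MRPS12, MRPS18A, MRPS18B, MRPS18C, MRPS30 and MRPS36. For each other list the genes with the highest and lowest log2 fold change on average are named. Members and lists were chosen with earlier results of these data known, and further members, partners, neighbours, motifs and printed sequences after their values were seen. Alternatives tried were other library scalings, spike-in factors, pseudocounts, filters, a replicate block, the compared groups alone, the other tests, and leaving out each library.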

Additional observations from a re-analysis of the deposited data

Results flagged for a closer look

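Responses to THZ1 that differed between cell lines by the interaction contrast in limma are listed here. On the deposited scale, the response in MiaPaCa2 minus that in BxPC3 was 1.03 for MRPL17, 0.91 for MRPS26, 0.84 for MRPL36, 0.80 for MRPS31, 0.75 for MRPL2, 0.70 for MRPL15, 0.64 for MRPL45, 0.58 for MRPL10, 0.53 for MRPL16, 0.49 for MRPL9, 0.48 for MRPS18B and 0.39 for MRPS27, which makes 12 members. Of all genes, 13.8% were called either way there. On the spike-in scale all 12 differences were positive as well, between 0.27 and 0.92. Of the members 2 passed the test, where 7.65% of all genes were called either way. The response in PANC1 minus that in BxPC3 was -1.03 for MRPS15 and -0.77 for MRPL51 on the deposited scale, and -0.14 and 0.14 on the spike-in scale, where neither passed. In all, 34 members differed between PANC1 and BxPC3 and 43 between PANC1 and MiaPaCa2 on the deposited scale, where 42.7% and 38.9% of all genes did. On the spike-in scale 29 and 24 members differed, where 30.5% and 43.6% of all genes did. No explanation of these differences was tested.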

How the results depend on the processing

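The scaling decided the direction. Counts of members in this section stand without the shares of all genes called in the same fits. They show how the counts moved and are not read as results about the members. In BxPC3 and MiaPaCa2 on the deposited scale, the members' median became 0.11 and 0.41 with DESeq2 size factors, 0.081 and 0.39 with TMM factors (trimmed mean of M-values), and -0.31 and -0.029 with equal sums. Members higher became 20, 20 and 8 in BxPC3 in that order and 13 with equal sums in MiaPaCa2; members lower became 16, 18 and 38 in BxPC3 and 2, 3 and 19 in MiaPaCa2. Calls between PANC1 and MiaPaCa2 responses, 0 higher and 43 lower as reported, became 17 (0 and 17), 23 (1 and 22) and, with the direction turned, 12 (9 and 3). Those between PANC1 and BxPC3, 9 higher and 25 lower as reported, became 13 and 12, 15 and 12, and 34 and 0. Fitting the compared groups alone gave 14 lower in BxPC3, 26 called between PANC1 and BxPC3 with DMSO, 32 (spike-in scale 8) called between MiaPaCa2 and BxPC3 responses, 12 between PANC1 and MiaPaCa2 responses on the spike-in scale and 0 lower in PANC1 on that scale. DESeq2 on reads gave 2 higher in PANC1, and on the spike-in scale 11 lower there and 4 called between MiaPaCa2 and BxPC3 responses. A pseudocount of 5 gave a median of 0.55 in MiaPaCa2 and 7 lower in PANC1 on the spike-in scale. A filter of 5 left 0 lower in MiaPaCa2, because it removes MRPL53, the only member called lower there, from the genes tested. The cause of the other changes was not tested.

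The replicate numbers were not treated as pairs in the main fit. Same-numbered deviations correlated at -0.0031 to 0.086 in BxPC3, 0.017 to 0.14 in MiaPaCa2 and -0.031 to 0.45 in PANC1. Those with unlike numbers correlated at -0.070 to 0.053, -0.13 to 0.065 and -0.51 to 0.50 in the same order. These values do not settle whether the numbers pair the libraries. A replicate block gave 42 members higher in BxPC3, 59 in MiaPaCa2 and 0 in PANC1 on the deposited scale, and 9 lower in PANC1 on the spike-in scale.

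Leaving out 1 library at a time gave a median of 0.58 to 0.64 in MiaPaCa2; in PANC1 0 to 8 higher and 0 to 1 lower, and 0 to 11 lower on the spike-in scale; 9 to 28 called between MiaPaCa2 and BxPC3 responses (1 to 5 on the spike-in scale); and 10 to 30 between PANC1 and MiaPaCa2 on the spike-in scale.

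Of 5220 alternative values of named genes 89 changed sign, 68 of them without passing the threshold in either fit. The rest passed in at least 1 fit, such as MRPS18B in BxPC3 with equal sums (limma adjusted p = 6.3e-06). The sign changes follow by setting. With equal sums these were, in BxPC3, -0.16 for MRPL19, -0.16 for MRPL3, -0.16 for MRPL38, -0.60 for MRPL55, -0.51 for MRPS12, -0.64 for MRPS18B, -0.60 for MRPS18C, -0.49 for MRPS2, -0.44 for MRPS27 and -0.31 for MRPS36, and in MiaPaCa2 -0.33 for ICT1, -0.22 for MRPL17, -0.050 for MRPL55, -0.32 for MRPS12, -0.41 for MRPS18A, -0.090 for MRPS18B, -0.43 for MRPS18C, -0.11 for MRPS2, -0.36 for MRPS30 and -0.040 for MRPS36. With TMM factors they were, in BxPC3, -0.21 for MRPL55, -0.097 for MRPS12, -0.24 for MRPS18B, -0.23 for MRPS18C, -0.088 for MRPS2 and -0.032 for MRPS27, in MiaPaCa2 -0.013 for MRPS18A and -0.053 for MRPS18C, and in PANC1 0.066 for MRPL10, 0.0054 for MRPL12 and 0.038 for MRPS18B. With DESeq2 size factors they were, in BxPC3, -0.18 for MRPL55, -0.068 for MRPS12, -0.21 for MRPS18B, -0.21 for MRPS18C, -0.059 for MRPS2 and -0.00266 for MRPS27, in MiaPaCa2 -0.034 for MRPS18C, and in PANC1 0.11 for MRPL10, 0.049 for MRPL12, 0.036 for MRPL17, 0.0027 for MRPS18A and 0.083 for MRPS18B. MRPL11 in PANC1 became -0.011 with DESeq2 and -0.00848 with edgeR on reads.

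Leaving out 1 library at a time changed signs in PANC1 on the deposited scale for MRPL10 (-0.098 to 0.052), MRPL11 (-0.12 to 0.30), MRPL12 (-0.43 to 0.24), MRPL23 (-0.33 to 0.16), MRPL24 (-0.048 to 0.28), MRPL28 (-0.12 to 0.27), MRPL38 (-0.46 to 0.067), MRPL41 (-0.099 to 0.17), MRPL48 (-0.079 to 0.16), MRPL55 (-0.45 to 0.10), MRPS12 (-0.31 to 0.13), MRPS15 (-0.093 to 0.16), MRPS18B (-0.20 to 0.062) and MRPS30 (-0.043 to 0.21), and on the spike-in scale for MRPL19 (-0.33 to 0.43), MRPL3 (-0.26 to 0.49), MRPL42 (-0.32 to 0.39), MRPL51 (-0.13 to 0.018), MRPS30 (-0.43 to 0.017), MRPS31 (-0.35 to 0.013) and MRPS36 (-0.12 to 0.33). In BxPC3 it did so for MRPS18C on the deposited scale (-0.034 to 0.17) and on the spike-in scale for MRPL11 (-0.076 to 0.062), MRPL23 (-0.16 to 0.058), MRPL28 (-0.19 to 0.019) and MRPL48 (-0.20 to 0.015). Members at low levels, such as MRPL53 and MRPS24, rest on few reads, which limits their precision.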
